A study of Mus musculus with 8 samples.

Results

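The genes described here encode proteins that neutrophils store in granules or in the cytosol. They were 10 of the 16464 genes in the deposited table and were taken by symbol, grouped by the compartment in which the protein is kept. No measured value enters that rule, but the genes were picked with earlier results of these data known. Mpo, Elane, Ctsg and Prtn3 stand for the primary granule, Ltf, Ngp, Camp and Cd177 for the secondary granule, and S100a8 and S100a9 for the cytosol. All 10 had a row and all 10 passed the filter on low values. RNA came from the posterior capsule of the knee of C57BL/6 males, wild type and labelled as 10 weeks old. The cast group (4 libraries, titled 14dpi) came from knees held by a cast at 140 degrees for 2 weeks, and the other group (4 libraries) was labelled naive. The series text gives 8 weeks as the age of the mice, against 10 weeks in the sample labels. The labels do not state whether each library is a separate animal, and p-values then measure the spread between these samples alone, which may be technical.

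Neutrophils make their granule proteins in sequence while they mature in bone marrow. Promyelocytes make the primary (azurophil) granule enzymes, and myelocytes and metamyelocytes then make the secondary (specific) granule proteins. The transcripts of primary granule enzymes are largely gone in circulating neutrophils, whereas those of S100a8 and S100a9 stay abundant in mature cells. In mice, C/EBP epsilon is needed for secondary granule genes, and PU.1, an ETS family factor, together with C/EBP alpha acts on primary granule genes.

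Short promoter words were counted in each class, with no test of a difference between classes. The words were searched on both strands in the 250 bases before the RefSeq start of each gene (GRCm38.p6). Some windows lay partly inside annotated transcripts, by 203 bases for Mpo and 161 for Camp, and that of Prtn3 lay wholly inside them. GAGGAA, an ETS-type word, was in the windows of all 4 primary, 2 of 4 secondary and 1 of 2 cytosolic genes, and in 23.3% of 32851 windows in all. TTNNGNAA, a C/EBP-type word, was in 0 of 4 primary, 3 of 4 secondary and 2 of 2 cytosolic windows, and in 36.8% of all windows. TTGCNNAA, a narrower C/EBP-type word that can overlap the previous one, was in 0 primary, 2 secondary and 1 cytosolic window, and in 9.56% of all. Camp held none of these words. A match is a description of letters and not a binding site. A pair of windows from each class is shown so that the words can be seen in place. They are Elane (chr10:79886062-79886246, plus strand), Ctsg (chr14:56102575-56102824, minus), Ltf (chr9:111019042-111019270, plus), Ngp (chr9:110419558-110419746, plus), S100a8 (chr3:90668821-90668977, plus) and S100a9 (chr3:90695722-90695971, minus). Capitals mark the words on either strand. Bases inside an annotated transcript are left out, and with them 1 further match each of Ngp and S100a8.
Elane: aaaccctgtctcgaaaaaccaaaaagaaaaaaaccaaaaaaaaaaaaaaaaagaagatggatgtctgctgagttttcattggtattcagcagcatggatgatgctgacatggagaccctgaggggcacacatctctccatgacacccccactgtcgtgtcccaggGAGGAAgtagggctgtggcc
Ctsg: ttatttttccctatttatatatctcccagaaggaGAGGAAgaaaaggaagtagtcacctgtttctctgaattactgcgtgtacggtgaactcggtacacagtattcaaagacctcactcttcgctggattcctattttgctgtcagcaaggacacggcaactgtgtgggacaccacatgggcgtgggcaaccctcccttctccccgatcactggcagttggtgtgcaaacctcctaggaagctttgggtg
Ltf: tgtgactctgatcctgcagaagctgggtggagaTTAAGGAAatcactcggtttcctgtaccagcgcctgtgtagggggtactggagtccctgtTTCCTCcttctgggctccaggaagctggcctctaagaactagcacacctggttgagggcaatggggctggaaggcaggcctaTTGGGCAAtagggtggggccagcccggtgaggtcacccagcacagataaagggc
Ngp: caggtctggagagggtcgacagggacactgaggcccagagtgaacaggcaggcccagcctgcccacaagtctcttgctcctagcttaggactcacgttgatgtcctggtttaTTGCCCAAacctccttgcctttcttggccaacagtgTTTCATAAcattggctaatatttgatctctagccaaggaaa
S100a8: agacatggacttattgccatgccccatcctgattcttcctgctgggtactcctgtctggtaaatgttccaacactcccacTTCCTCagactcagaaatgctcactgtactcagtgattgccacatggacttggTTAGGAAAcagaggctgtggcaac
S100a9: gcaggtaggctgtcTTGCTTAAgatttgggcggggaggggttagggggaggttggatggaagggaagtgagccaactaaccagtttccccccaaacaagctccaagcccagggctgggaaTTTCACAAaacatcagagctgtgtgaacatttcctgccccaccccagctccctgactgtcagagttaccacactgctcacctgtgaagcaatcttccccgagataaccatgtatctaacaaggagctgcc

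The files hold 1 normalised read count per gene and library, and all levels below are in that unit. Recovered reads numbered 5956148 to 7381255 in cast libraries and 6038095 to 6805349 in naive replicates 1 to 3, but 1503880 in naive replicate 4. In that library 1 read was worth 0.647 normalised counts, against 0.133 to 0.165 in the other libraries, and 2264 genes were at 0. Connective tissue genes that define a capsule (Col1a1, Col1a2, Col3a1, Dcn and others, 10 in all) summed to 25529 to 43730 in cast and 27383 to 45855 in naive libraries. Skeletal muscle genes summed to 10.6 to 280 in cast libraries and 84.1 to 2077 in naive libraries. In bulk tissue, fewer cells of a type and less RNA per cell cannot be told apart.

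Of the 10 genes, 6 were higher in cast capsules, namely Prtn3, Ltf, Ngp, Cd177, S100a8 and S100a9, and the other 4 (Mpo, Elane, Ctsg and Camp) did not pass the test. Of all 15120 genes tested with limma, 12.0% passed in either direction, 6.51% as higher and 5.46% as lower in cast (adjusted p at most 0.05, Benjamini-Hochberg over all genes). On recovered reads edgeR called 7 members as higher, against 7.29% of all genes, and DESeq2 called 9, against 9.68%. In the same 6 genes every cast library lay above every naive library, which held for 11.1% of all genes tested. The counts by class were 1 of 4 primary, 3 of 4 secondary and 2 of 2 cytosolic genes. The median log2 fold change was 1.93 in the primary, 5.01 in the secondary and 6.17 in the cytosolic class, against 0.07 over all genes tested. On recovered reads the class medians were 4.56, 6.54 and 6.65 with edgeR, so the primary median depends on the scale. Each fold change is a difference of log2(value + 1), cast minus naive, which understates changes of genes near 0, and no p is given for a class. Without cast replicates 1 and 2, which had been seen to be high in primary granule genes, 3 members passed with limma (Cd177, S100a8 and S100a9), against 2.49% of all genes called as higher in that fit.

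**Figure D1:**
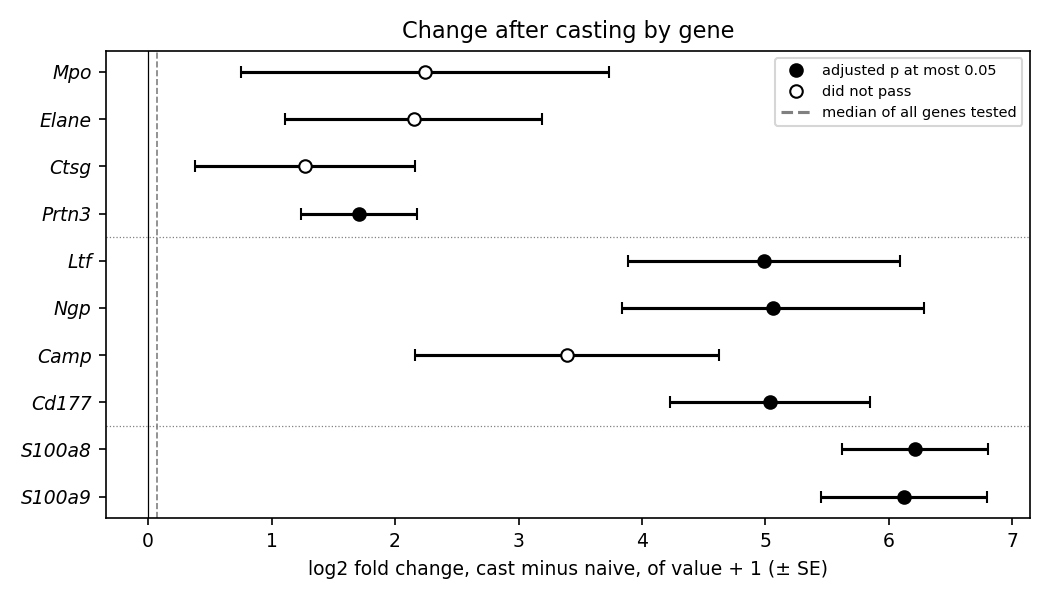
Log2 fold change of each member, cast minus naive, from limma on log2(normalised count + 1), with bars of 1 standard error. Filled points passed the test, dotted lines separate the classes and the dashed line is the median of all genes. The values lie between 1.27 (Ctsg) and 2.24 (Mpo) in the primary class, between 3.39 (Camp) and 5.06 (Ngp) in the secondary class, and at 6.12 and 6.21 in the cytosolic class.

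Mpo, Elane and Ctsg, of the primary granule, were high in cast replicates 1 and 2 and within the naive range in cast replicates 3 and 4. Mpo (chromosome 11, 87793581 to 87804413, plus strand, GRCm38) encodes myeloperoxidase, which makes hypochlorous acid. It had 55.05, 144, 0.273 and 0.133 normalised counts in cast replicates 1 to 4, against 0.904, 1.94, 0 and 3.23 in naive replicates 1 to 4. Cast replicates 3 and 4 held 2 and 1 reads of Mpo, so those libraries lay inside the naive range and the groups overlapped. The mean was 49.9 ± 67.9 in cast and 1.52 ± 1.39 in naive capsules (SD, n = 4 each), with a log2 fold change of 2.24 (SE 1.49, limma adjusted p = 0.382). DESeq2 on recovered reads called Mpo (adjusted p = 0.0476), whereas edgeR did not (adjusted p = 0.0712). Without cast replicates 1 and 2 its log2 fold change was -0.88 (limma adjusted p = 0.44). Those libraries were left out after they had been seen to be high, so a fall was fixed by the choice.

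Elane (chromosome 10, 79886247 to 79888215, plus strand) encodes neutrophil elastase. Its values were 10.7, 43.01, 0.136 and 0.267 in cast replicates 1 to 4, against 0, 0.645, 0.165 and 0 in naive replicates 1 to 4. Cast replicates 3 and 4 held 1 and 2 reads and lay within the naive range. The mean was 13.5 ± 20.3 in cast and 0.203 ± 0.305 in naive capsules, and the log2 fold change of 2.15 (SE 1.04) did not pass with limma (adjusted p = 0.223). It passed with DESeq2 (adjusted p = 0.0194) and not with edgeR (adjusted p = 0.0602). Ctsg (chromosome 14, 56099881 to 56102574, minus strand) encodes cathepsin G, a serine protease. It had 7.58, 18.7, 0 and 0.267 in cast replicates 1 to 4, against 0.301, 0.645, 0 and 1.94 in naive replicates 1 to 4. The groups overlapped, and cast replicate 3 was at 0 as was naive replicate 3. The log2 fold change was 1.27 (SE 0.89, limma adjusted p = 0.406). Without cast replicates 1 and 2 it was -0.49 (limma adjusted p = 0.6), a fall likewise fixed by the choice of libraries.

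Prtn3 was the primary granule gene that passed, and the only one of its class with reads in every library. It encodes proteinase 3, a serine protease, and lies on chromosome 10 (79874476 to 79883174, plus strand), 3.1 kb from Elane on the same strand with 0 annotated genes between them. Its values were 19.8, 43.5, 7.77 and 11.9 in cast replicates 1 to 4, against 5.42, 2.904, 3.47 and 7.12 in naive replicates 1 to 4. The groups did not overlap, but the lowest cast library and the highest naive library were close. The mean was 20.7 ± 16.0 in cast and 4.73 ± 1.92 in naive capsules, with a log2 fold change of 1.71 (SE 0.47, limma adjusted p = 0.0437). The call was lost without any 1 of 6 libraries (adjusted p = 0.099, 0.0795 and 0.0593 without cast replicates 1, 2 and 4, and 0.0714, 0.116 and 0.107 without naive replicates 1, 2 and 3). Prtn3 overlaps Plppr3, a protein-coding gene on the opposite strand that was not analysed here, and shares 129 of its 1725 31-base words with it. The libraries were directional per the labels' protocols, but no source used here says whether strand entered the counting. Without strand, reads from the sequence that the 2 genes share could not be told apart. Mpo overlaps the antisense gene Gm11505 in the same way (416 of 3451 words shared with other genes).

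**Figure D2:**
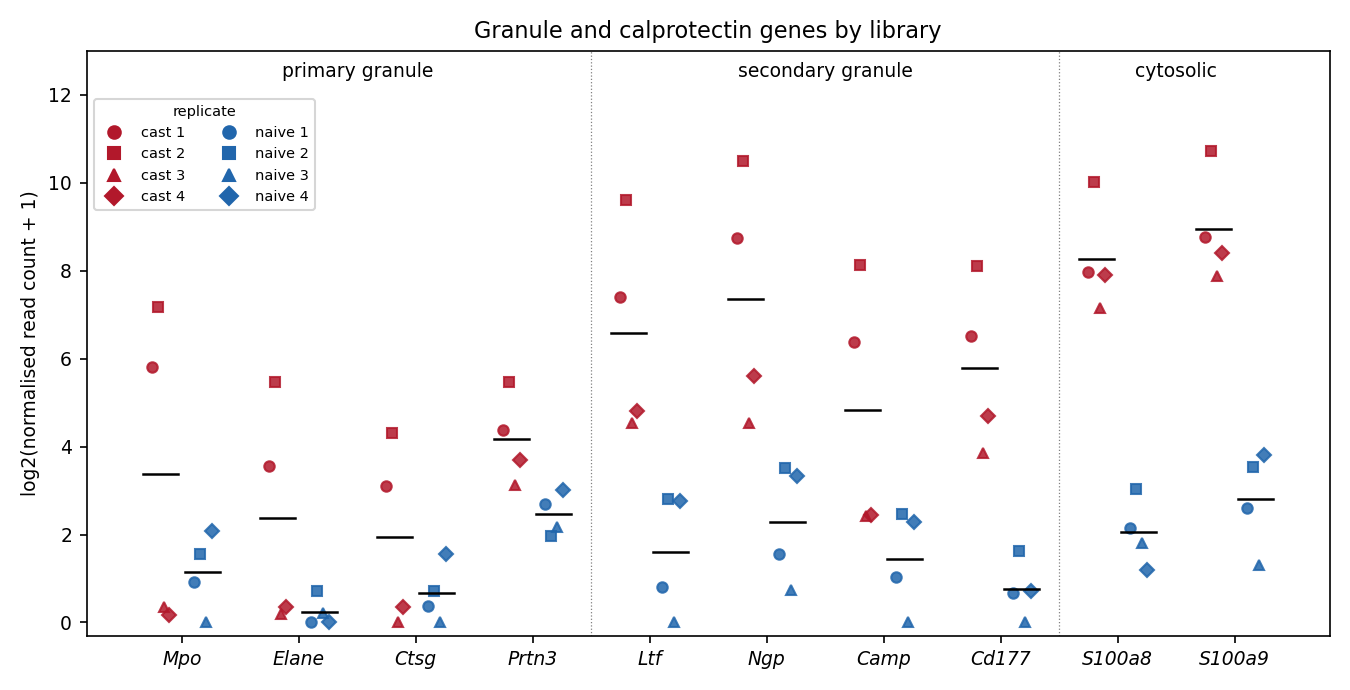
Level of the 10 members in each library as log2(normalised read count + 1), with cast libraries in red left of naive libraries in blue for each gene, a symbol for each replicate and a black line at the mean of the log2 values of each group. Cast replicates 1 and 2 lie above cast replicates 3 and 4 for every member. S100a8, at 142 to 1035 normalised counts in cast against 1.29 to 7.26 in naive libraries, and S100a9 show a clear gap between the groups.

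Secondary granule genes were higher in all 4 cast libraries than in all naive libraries, apart from Camp, and the spread among cast libraries was wide. Ltf (chromosome 9, 111019271 to 111042767, plus strand) encodes lactoferrin, an iron-binding protein. It had 167, 777, 22.2 and 27.2 in cast replicates 1 to 4, against 0.753, 5.97, 0 and 5.82 in naive replicates 1 to 4. Every cast library lay above the highest naive library. The mean was 249 ± 359 in cast and 3.14 ± 3.202 in naive capsules, with a log2 fold change of 4.99 (SE 1.10, limma adjusted p = 0.0189). The call was lost without cast replicate 1 (adjusted p = 0.0515) or naive replicate 3 (adjusted p = 0.0549). With cast replicates 1 and 2 left out the log2 fold change was 3.08 (adjusted p = 0.0907).

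Ngp (chromosome 9, 110419747 to 110423012, plus strand) encodes neutrophilic granule protein, a cystatin-related protein of mouse neutrophils. Its values were 429, 1449, 22.2 and 48.01 in cast replicates 1 to 4, against 1.96, 10.5, 0.661 and 9.06 in naive replicates 1 to 4. The groups did not overlap, and cast replicate 3 had the lowest cast level as for Ltf. The mean was 487 ± 668 in cast and 5.54 ± 4.95 in naive capsules, and the log2 fold change was 5.06 (SE 1.22, limma adjusted p = 0.0263). That call was lost without cast replicate 1 (adjusted p = 0.0704), cast replicate 2 (0.0516), naive replicate 1 (0.0615) or naive replicate 3 (0.0737). Without cast replicates 1 and 2 the log2 fold change was 2.79 (limma adjusted p = 0.116). Camp (chromosome 9, 109847379 to 109849617, minus strand) encodes the cathelicidin precursor of an antimicrobial peptide. It had 81.7, 278, 4.36 and 4.401 in cast replicates 1 to 4, against 1.05, 4.52, 0 and 3.88 in naive replicates 1 to 4. Cast replicates 3 and 4 lay just below the naive maximum, so the groups overlapped. The log2 fold change was 3.39 (SE 1.23) and did not pass with limma (adjusted p = 0.11), whereas edgeR (adjusted p = 0.0344) and DESeq2 (adjusted p = 0.0075) called it.

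Cd177 (chromosome 7, 24743983 to 24760311, minus strand) encodes a surface and secondary granule membrane protein that binds proteinase 3 on human neutrophils. Its values were 90.3, 275, 13.5 and 24.9 in cast replicates 1 to 4, against 0.603, 2.097, 0 and 0.647 in naive replicates 1 to 4. All cast libraries lay above all naive libraries. The mean was 101 ± 121 in cast and 0.837 ± 0.891 in naive capsules, with a log2 fold change of 5.04 (SE 0.81, limma adjusted p = 0.00488). Cd177 shares 191 of its 2756 31-base words with Gm4763 and BC049730, which were not analysed here.

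The cytosolic pair was higher in every cast library than in any naive library. S100a8 (chromosome 3, 90668978 to 90670035, plus strand) and S100a9 (90692632 to 90695721, minus strand) encode the subunits of calprotectin, a calcium- and zinc-binding protein. They lie 22.6 kb apart with 0 annotated genes between them. S100a8 had 249.7, 1035, 142 and 239 in cast replicates 1 to 4, against 3.47, 7.26, 2.48 and 1.29 in naive replicates 1 to 4. S100a9 had 436, 1681, 235 and 337 in cast replicates 1 to 4, against 5.12, 10.6, 1.49 and 12.9 in naive replicates 1 to 4. Cast replicate 2 was the highest library for both, and no cast library came near the naive range. The mean of S100a8 was 417 ± 415 in cast and 3.62 ± 2.58 in naive capsules, with a log2 fold change of 6.21 (SE 0.59, limma adjusted p = 0.000371). For S100a9 the mean was 672 ± 678 in cast and 7.55 ± 5.204 in naive capsules, with a log2 fold change of 6.12 (SE 0.67, limma adjusted p = 0.000786). Both calls, and that of Cd177, held under all 19 alternatives tried.

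Within a library, the share of member reads in each class does not depend on how libraries were scaled. Primary granule genes held 6.02%, 4.34%, 1.83% and 1.81% of member reads in cast replicates 1 to 4, against 33.8%, 13%, 44.0% and 26.8% in naive replicates 1 to 4. Those shares rest on 9386, 38334, 3282 and 5197 member reads in cast libraries and on 130, 292, 50 and 71 in naive libraries. The cast libraries thus lay below all naive libraries, whose exact 95% intervals reached down to 9.38% in naive replicate 2. Secondary granule genes held 49.6%, 48.4%, 13.9% and 15.1% in cast replicates 1 to 4, against 22.3%, 49.0%, 8.0% and 42.3% in naive replicates 1 to 4. The cytosolic pair held 44.3%, 47.3%, 84.2% and 83.1% in cast replicates, against 43.8%, 38.0%, 48.0% and 31.0% in naive replicates. Cast replicates 3 and 4 stood apart by their high cytosolic share. All such intervals cover counting error only.

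**Figure D3:**
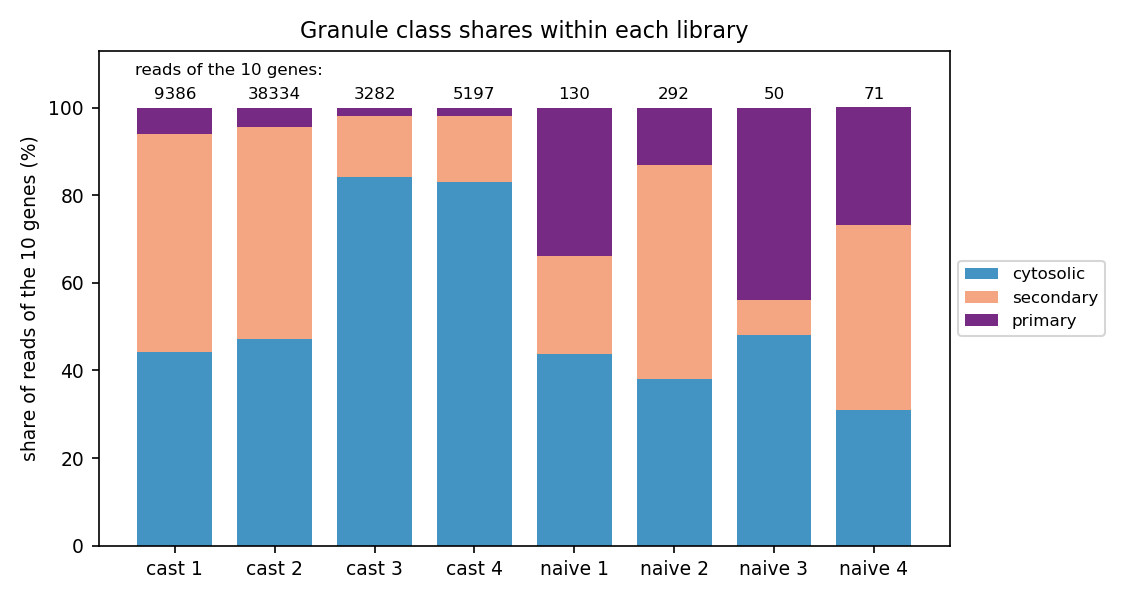
Share of the summed reads of the 10 members in the primary, secondary and cytosolic class, in percent, for each cast and each naive library. The cytosolic share is 84.2% and 83.1% in cast replicates 3 and 4, against 44.3% and 47.3% in cast replicates 1 and 2 and 31.0% to 48.0% in naive libraries.

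Prtn3 made up most of the primary share in naive replicates 1, 3 and 4 and in cast replicates 3 and 4. Prtn3 alone held 1.28%, 0.757%, 1.74% and 1.71% of member reads in cast replicates 1 to 4, against 27.7%, 6.16%, 42.0% and 15.5% in naive replicates 1 to 4. Mpo, Elane and Ctsg together held 4.74%, 3.58%, 0.0914% and 0.0962% in cast replicates 1 to 4, against 6.15%, 6.85%, 2.0% and 11.3% in naive replicates 1 to 4. The exact 95% intervals were 0.0189% to 0.267% and 0.0312% to 0.224% in cast replicates 3 and 4. They reached from 2.69% to 11.8% in naive replicate 1 and from 0.0506% to 10.6% in naive replicate 3, which had 1 read of these 3 genes. In naive replicate 3 the share could therefore not be told from that in cast replicates 3 and 4 at this depth.

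Set against S100a9 reads, Mpo separated the cast libraries more than any secondary granule gene did. For every 100 reads of S100a9 there were 12.6, 8.57, 0.116 and 0.0396 reads of Mpo in cast replicates 1 to 4, against 17.6, 18.2, 0 and 25.0 in naive replicates 1 to 4. The upper limit in naive replicate 3, with 0 reads of Mpo and 9 of S100a9, was 50.7. For Ngp the ratios were 98.3, 86.2, 9.45 and 14.3 in cast, and 38.2, 98.5, 44.4 and 70.0 in naive replicates. For S100a8, the partner of S100a9, they were 57.3, 61.6, 60.4 and 71.0 in cast replicates, against 67.6, 68.2, 167 and 10 in naive replicates. The exact 95% intervals of naive replicate 3 (68.3 to 432) and naive replicate 4 (1.13 to 41.2) lay on either side of the pooled cast ratio of 62.1, so the naive ratio varied between libraries beyond counting error.

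**Figure D4:**
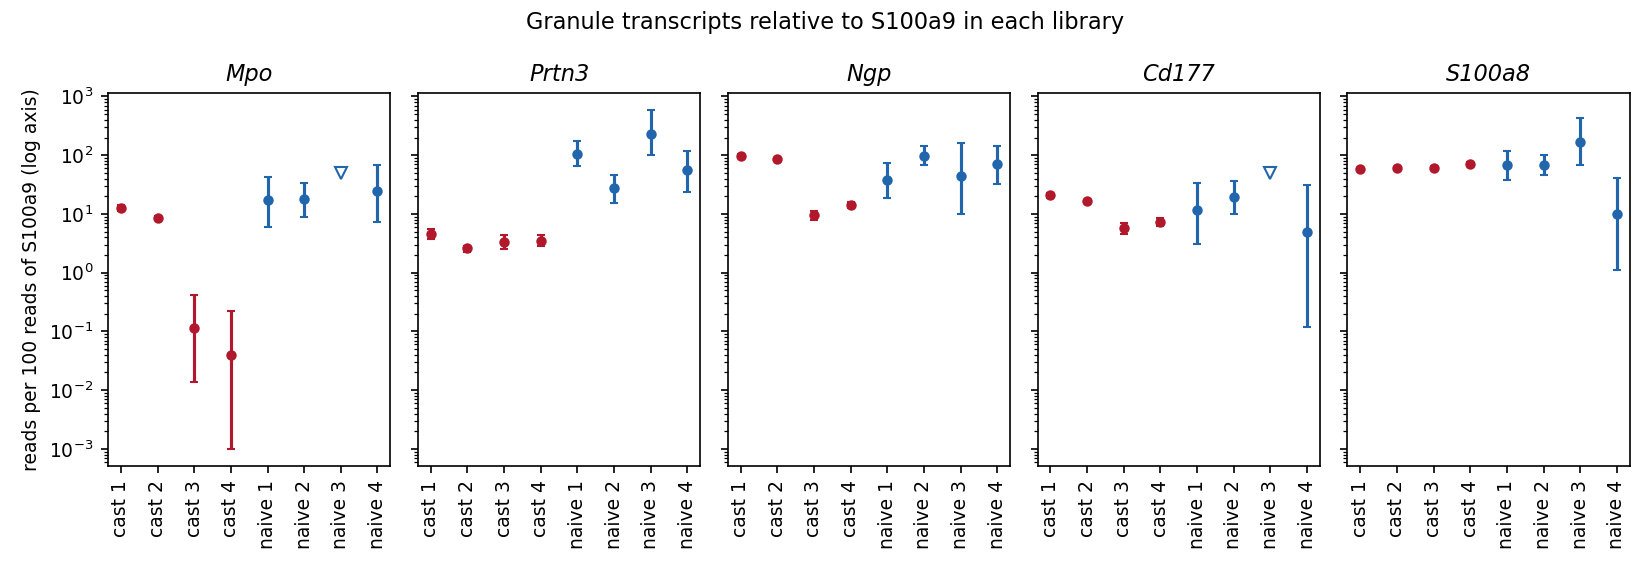
Reads of Mpo, Prtn3, Ngp, Cd177 and S100a8 per 100 reads of S100a9 in each library, cast left of naive, on a log axis with exact 95% intervals of counting. Triangles mark libraries with 0 reads, drawn at the upper limit. Mpo stands at 0.116 and 0.0396 in cast replicates 3 and 4, against 12.6 and 8.57 in cast replicates 1 and 2.

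Among secondary granule genes the proportions were not fixed. Per 100 Ngp reads there were 39.1, 53.6, 100 and 56.7 Ltf reads in cast replicates 1 to 4, and 53.1 in pooled naive reads (exact 95% interval 37.1 to 75.4). Cd177 had 21.1, 19.0, 60.7 and 51.9 per 100 Ngp reads in cast replicates 1 to 4, and 18.8 in pooled naive reads (10.7 to 31.2). Camp had 19.1, 19.2, 19.6 and 9.17 per 100 Ngp reads in cast replicates, against 42.7 in pooled naive reads (28.9 to 62.2). Cast replicates 3 and 4 therefore held more Cd177 for their Ngp than the other cast libraries.

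Per kilobase of the longest annotated transcript, the calprotectin genes had the highest mean of the members in both groups. The mean level per kilobase in cast capsules was 1295 for S100a9, 836 for S100a8, 399 for Ngp, 122 for Camp, 90.6 for Ltf and 37.2 for Cd177. Prtn3 (20.2), Mpo (18.1), Elane (13.8) and Ctsg (6.63) followed. In naive capsules the order was S100a9 (14.5), S100a8 (7.28), Prtn3 (4.61), Ngp (4.53), Camp (3.12), Ltf (1.14), Ctsg (0.72), Mpo (0.552), Cd177 (0.308) and Elane (0.206). The place of Prtn3 in these mean orders did not hold in each library. It lay above Cd177 in cast replicates 3 and 4 (7.58 and 11.6 per kilobase, against 4.97 and 9.19 for Cd177), and below Ngp in naive replicates 2 and 4 (2.83 and 6.94, against 8.58 and 7.41 for Ngp). The top rank of the calprotectin genes did not hold in naive replicates 3 and 4. In naive replicate 3 Prtn3 (3.39) lay above S100a9 (2.87). In naive replicate 4 S100a8 (2.60) lay below Ngp (7.41), Prtn3 (6.94) and Camp (5.12). In all 4 cast libraries S100a9 lay above S100a8, S100a8 above Ngp and Ngp above Camp. The SD over cast libraries was wide (1306 for S100a9 and 834 for S100a8).

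The genes with the profile most like each class included several other genes of neutrophils. Likeness was the root mean square difference of centred log2 values over the 8 libraries, among 11344 genes, and says nothing of shared control. Closest to the primary class were Padi4 (0.44), which citrullinates histones, Mmp25 (0.62), Ly75 (0.70), Itgb2l (0.70) and Acap1 (0.74). Of the primary members that form this mean profile, Ctsg (0.35) and Elane (0.43) lay nearer to it than these genes. Prtn3 (0.89) and Mpo (0.90) lay farther from it than all of them, so the primary profile is a mean of unlike profiles. Closest to the secondary class were Abca13 (0.55), Itgb2l (0.92), Mmp8 (0.96), a collagenase of neutrophils, Slfn4 (0.99) and Retnlg (1.02). Closest to the cytosolic class were Mmp8 (0.56), Lcn2 (0.70), Retnlg (0.78), Asprv1 (0.83) and Chil3 (0.83). Padi4 had 14.2, 49.5, 2.86 and 3.2008 in cast replicates 1 to 4, against 0.904, 1.94, 0.827 and 3.88 in naive replicates 1 to 4, which overlapped.

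Other genes linked to the same granules were read from lists. Of 12 tested genes of the secondary granule list, 8 were higher in cast and 4 did not pass (median log2 fold change 2.26). Not all of the 12 encode granule proteins. The list also holds the factor Cebpe, which did not pass, and the receptor gene Ltb4r1, which did (limma adjusted p = 0.0406). Lcn2, an iron-sequestering protein, had 146, 525, 215 and 203 in cast replicates 1 to 4, against 4.67, 4.68, 3.803 and 5.82 in naive replicates 1 to 4. Chil3, a chitinase-like protein, had 344, 389.5, 258 and 99.4 in cast replicates, against 0.301, 2.58, 0.827 and 1.94 in naive replicates. In both genes the groups were far apart, and cast replicate 1 was the lowest cast library for Lcn2 and cast replicate 4 for Chil3. Of 10 gelatinase granule and secretory vesicle genes, 4 were higher, among them Mmp9 (gelatinase B, 298 ± 174 in cast and 29.7 ± 8.17 in naive capsules, limma adjusted p = 0.00338). Of 9 other primary granule and promyelocyte genes, 2 were higher (median 1.13, also with Ms4a3 at its bound against 3 reads over the naive group). Those were Srgn, the granule proteoglycan core, and Igfbp4, an IGF-binding protein that connective tissue also makes. Srgn had 187, 255, 372.5 and 374 in cast replicates 1 to 4, against 45.8, 27.7, 53.7 and 51.1 in naive replicates 1 to 4. Unlike Mpo, it was thus highest in cast replicates 3 and 4. Ms4a3, a marker of granulocyte and monocyte progenitors, had 4.78, 12.9, 0 and 0 in cast replicates 1 to 4 and was at 0 in all naive libraries.

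Factors that act on granule genes were called in both directions with all 8 libraries. Of 10 tested, 3 were higher (Runx1, Spi1 and Mxd1), 1 was lower (Cebpa) and 6 did not pass. Without cast replicates 1 and 2, Runx1 alone was called of the 8 tested (limma adjusted p = 0.0441, against 0.0748 for Spi1, 0.0855 for Cebpa and 0.201 for Mxd1). Spi1, which encodes PU.1, had 54.7 ± 18.8 in cast and 26.3 ± 1.94 in naive capsules (log2 fold change 0.97, SE 0.23, limma adjusted p = 0.0246). Cebpa, which fat cells also use, had 138 ± 53.3 in cast and 299 ± 64.8 in naive capsules (log2 fold change -1.18, SE 0.31, limma adjusted p = 0.0386). Cebpe had 3.63, 15.3, 0.273 and 0.533 in cast replicates 1 to 4, against 0, 0.323, 0.331 and 0 in naive replicates 1 to 4, and did not pass (adjusted p = 0.18, limma). Gfi1, a repressor needed for neutrophil formation, had 4.94, 7.64, 0.409 and 0.533 in cast replicates, against 0.151, 0.645, 0.165 and 0 in naive replicates. Both were low in cast replicates 3 and 4, as were Mpo and Elane.

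Genes of mature neutrophils were higher in cast capsules with limma, except that Padi4 did not pass (limma adjusted p = 0.128). Of 11 tested, limma called 10 as higher (median log2 fold change 3.47), and 10 were still called without cast replicates 1 and 2. On recovered reads edgeR and DESeq2 each called all 11, Padi4 among them. Csf3r, the G-CSF receptor, had 97.4, 193, 148 and 100 in cast replicates 1 to 4, against 6.18, 9.68, 7.28 and 18.1 in naive replicates 1 to 4. Cxcr2, a chemokine receptor, had 54.4, 125, 66.4 and 67.6 in cast replicates, against 10.4, 12.7, 10.9 and 7.76 in naive replicates. Neither gene overlapped between the groups, and both were as high in cast replicates 3 and 4 as in cast replicate 1. Of 10 tested genes of the protease inhibitor list, 8 were higher (median 2.87), and their action on granule enzymes was not tested. The median was 2.94 with Stfa2, at 0 in all naive libraries, set at its bound against 3 reads over the group. Serpina3n, a serpin, had 2529 ± 1002 in cast and 219 ± 154 in naive capsules (log2 fold change 3.67, SE 0.45, limma adjusted p = 0.00138). Slpi, an inhibitor of elastase and cathepsin G, had 20.3 ± 11.5 in cast and 0.626 ± 0.415 in naive capsules (limma adjusted p = 0.000672). Of 7 tested recruitment signals 3 were higher, the chemokines Cxcl5 and Cxcl12 and the granulocyte growth factor Csf3. Csf3 was near the floor, with 36 cast reads and 1 naive read in all (limma adjusted p = 0.0374). Cxcl5 had 5.11, 42.0, 109 and 66.2 in cast replicates 1 to 4, against 0.151, 0, 0 and 0.647 in naive replicates 1 to 4. Cxcl12 had 2444 ± 445 in cast and 347 ± 94.6 in naive capsules (log2 fold change 2.83, SE 0.25, limma adjusted p = 0.000299).

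**Figure D5:**
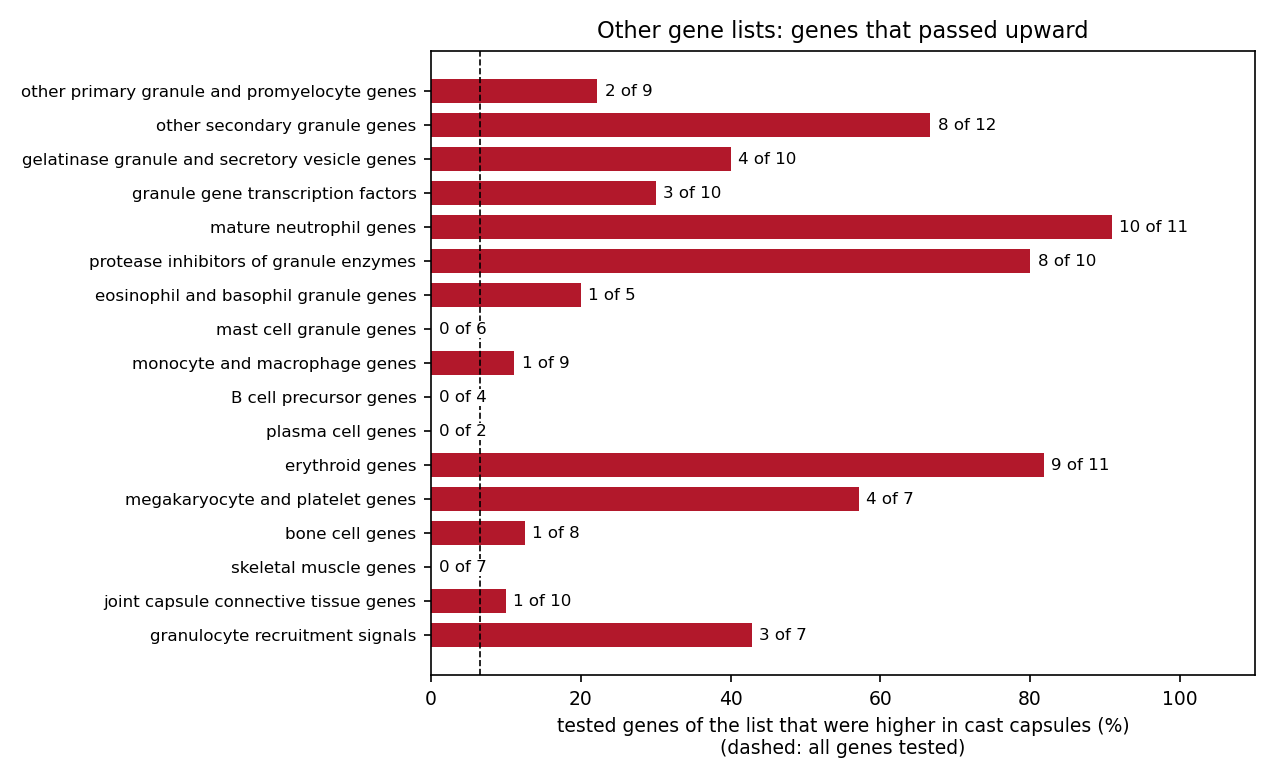
Percent of the tested genes of each list that passed as higher in cast capsules with limma, with the count beside each bar and a dashed line at the 6.51% of all genes tested. The mature neutrophil (10 of 11), erythroid (9 of 11) and inhibitor (8 of 10) lists have long bars, and the mast cell, B cell precursor, plasma cell and muscle lists have none.

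Of the lists of other marrow and blood cells, the erythroid and platelet lists had the most genes higher in cast. Over all genes tested with limma, 6.51% were higher and 5.46% lower in cast. Of 11 erythroid genes tested, 9 were higher, with sums of 10439, 5501, 19875 and 3954 in cast replicates 1 to 4, against 1179 to 1784 in naive libraries. Their sum was highest in cast replicate 3, where the members summed to 447.5, the lowest of the cast libraries. Of 10 erythroid genes tested without cast replicates 1 and 2, 2 passed. Of 7 platelet genes 4 were higher, with sums of 128 to 196 in cast and 74.9 to 243 in naive libraries. Jchain, a plasma cell gene, had 4.78, 10.04, 0 and 0 in cast replicates 1 to 4, against 0.151, 0.161, 0 and 0 in naive replicates 1 to 4, and did not pass (limma adjusted p = 0.258). Xbp1, of the same list, had 189, 199, 227 and 311 in cast replicates 1 to 4, against 223, 186, 201 and 177 in naive replicates 1 to 4 (limma adjusted p = 0.53). Jchain and Ms4a3 were high in the cast libraries that were high in Mpo, and Xbp1 was not. Of the B cell precursor genes 6 of 10 were not analysed here, and limma called 0 of the 4 tested (1 at an unadjusted p under 0.05, edgeR 0, DESeq2 1). Mast cell genes gave 0 of 6 (3 at an unadjusted p under 0.05, edgeR 0, DESeq2 1), and plasma cell genes 0 of 2 (0 unadjusted, edgeR 0, DESeq2 0). Of 9 monocyte and macrophage genes 1 was higher, Ly6c2, with 17.8, 52.5, 8.999 and 6.402 in cast replicates 1 to 4, against 0.452, 0.645, 0.661 and 3.23 in naive replicates 1 to 4. Without naive replicate 4, 3 of these 9 genes were higher and 1 was lower. That fit called more genes in all, with 1382 of 15148 higher and 1283 lower. Without cast replicates 1 and 2 Ly6c2 lost its call (limma adjusted p = 0.059). Of 5 eosinophil and basophil genes 1 was higher, Siglecf (limma adjusted p = 0.0449). Siglecf had 95 cast and 6 naive reads, and the groups overlapped (1.98 in cast replicate 1, 2.59 in naive replicate 4). Of 8 bone cell genes, Ibsp was higher and Bglap and Bglap2 were lower. Of 7 muscle genes 3 were lower (7 at an unadjusted p under 0.05), and all 7 were without naive replicate 4. The 3 calls were lost without cast replicates 1 and 2 (limma adjusted p = 0.0549 for Acta1, 0.0896 for Ckm and 0.146 for Mylpf). Naive replicate 4 had a muscle sum of 84.1, against 1163 to 2077 for naive replicates 1 to 3. Of 10 connective tissue genes 1 was higher, Lum. The part of these cell types in the members' values was not tested.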

How the data were processed

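Per the labels' protocols, capsules were flash frozen, RNA was taken with Trizol, and directional libraries were made after depletion of ribosomal RNA and read in pairs. The protocol text names Trimmomatic 0.38 and a human build, whereas the mouse build mm10, edgeR, RSEM, Bowtie2 and Trimmomatic 0.36 stand in the submitters' processing notes. Gene symbols in the table were those of mouse. No source used here gives the versions of the other tools, the annotation or the use of strand. The deposited values are a signal unit, namely read counts that the authors had normalised, with 1 value for a gene in a library.

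Each value divided by its library's step was whole within 0.01 for 100% of values, and whole reads were recovered from it. The smallest read sum of a gene was 8. Values were taken to log2 after adding 1, a mean of 0.5 or more was required (15120 genes), and groups were compared with limma-trend, adjusted by Benjamini-Hochberg at 0.05. The files held normalised values and not raw counts, so edgeR and DESeq2 on recovered reads were alternatives. Other alternatives were pseudocounts of 0.5 and 5, no filter, a filter at 2.5, median-of-ratios scaling, limma without a trend, the replicate number as a block, reads thinned to the smallest library, and libraries left out. The limma script was tested on simulated data. Shares have exact Clopper-Pearson 95% intervals. Coordinates are from GENCODE (GRCm38) and promoters from RefSeq (GRCm38.p6).

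Named genes were all 10 members, from each list up to 3 tested genes with the smallest p that passed (or, where none passed, the 2 with the highest mean), 10 fixed genes whatever their values, and the 5 genes most like each class. Ly6g, among the fixed genes, was not analysed here. The members and lists were chosen with earlier results of these data known. Padi4, Jchain and Ms4a3 fall under the rule. Lists share genes (Slpi, Cebpe and Serpinb1a each stand in 2). The fits used limma 3.58.1, DESeq2 1.42.0 and edgeR 4.0.16 in R 4.3.3, and the rest used scipy 1.17.1, numpy 2.4.6, pandas 2.3.3 and matplotlib 3.10.9 in Python 3.11.15.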

Additional observations from a re-analysis of the deposited data

Results flagged for a closer look

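In a group of 4 libraries, a value was singled out where its gap to the nearest other library exceeded Dixon's 95% critical value as a part of the group's range. This held for 15 of 126 gene and group combinations over 64 named genes, 4 in cast and 11 in naive libraries. The rate of about 1 in 20 behind that critical value assumes normally distributed values. The rule was applied to normalised counts without a log step, and several of the values singled out rest on few reads. That rate therefore cannot serve as a measure of chance, and no excess over chance is claimed.

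Cast replicate 2 was far above the other cast libraries for S100a8 (1035 normalised counts, next 249.7), S100a9 (1681, next 436) and Fpr2, a formyl peptide receptor (33.1, next 13.7). Cast replicate 4 was far above the others for Tpsb2, a mast cell tryptase (90.3, next 38.2).

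Naive replicate 4, in which 1 read was worth 0.647 normalised counts, was the highest naive library for Acap1 (4.53, next 1.29), Clec4e (1.29, next 0.301), Itgb2l (1.94, next 0.323), Ly6c2 (3.23, next 0.661) and Siglecf (2.59, next 0.323). Naive replicate 1 was highest for Asprv1 (0.452, others at 0) and lowest for Igfbp4 (583, next 758). Naive replicate 2 was highest for Fpr1 and Treml1 (0.323 each, others at 0). Naive replicate 3 was highest for Csf3 (0.165, others at 0) and Serpina3g (0.331, others at 0). Values under 0.5 rest on 3 reads or fewer.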

How the results depend on the processing

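Of 189 results of single members under alternatives, 165 kept their direction and side of the threshold, and 18 kept the direction but lost the call. A further 4 gained a call and 2 reversed, Mpo (-0.88) and Ctsg (-0.49) without cast replicates 1 and 2. Those libraries were left out after they had been seen to be high, so a fall of these genes in that fit was fixed by the choice. With 6 of 10 members called as higher by limma, edgeR called 7, DESeq2 9, and leaving out 1 library gave 3 to 6 (3 without cast replicate 1 or naive replicate 3). Without cast replicates 1 and 2 it gave 3, and Elane then fell under the filter. Over all genes, limma called 1810, DESeq2 called 2754, and 717 were called without cast replicates 1 and 2. Leaving out 1 library gave 916 to 2665 (916 without cast replicate 3, 1010 and 1043 without naive replicates 2 and 3, 1143 without cast replicate 2, 2665 without naive replicate 4). Prtn3 also lost its call at a pseudocount of 5 (adjusted p = 0.0539), with thinned reads (0.0988) and without cast replicates 1 and 2 (0.21), all by limma. With the replicate number as a block, limma called 1371 genes and 5 members, losing Prtn3 (adjusted p = 0.0757). Deviations of same-numbered libraries from their group means correlated by 0.08, 0.035, -0.057 and -0.021. With no known pair to set these against, they cannot decide whether the numbers pair libraries. Per kilobase of transcript, the primary share was 2.96%, 2.12%, 0.999% and 1.01% in cast replicates 1 to 4, against 22.6%, 8.42%, 29.8% and 19.2% in naive replicates 1 to 4. Without S100a8 and S100a9 it was 10.8%, 8.23%, 11.6% and 10.7% in cast replicates 1 to 4, against 60.3%, 21.0%, 84.6% and 38.8% in naive replicates 1 to 4. List counts without cast replicates 1 and 2, chosen after seeing the data, stayed within 1.5 times for 9 of 17 lists, and without naive replicate 4 for 12. In the fit without cast replicates 1 and 2, limma calls fell to 2 of 10 erythroid, 2 of 7 platelet and 1 of 8 factor genes, and Siglecf (adjusted p = 0.155), Lum (0.106), Ibsp (0.142), Bglap (0.132) and Bglap2 (0.121) were lost. In the fit without naive replicate 4, 1 mast cell gene was called as higher, 1 B cell precursor gene as lower, and 1 connective tissue gene in each direction. Of all 15148 genes tested in that fit, 1382 were higher and 1283 lower. Median-of-ratios scaling moved fold changes by a median of -0.005 (log2). Depth limits naive ratios, which rest on 50 to 292 member reads. The causes were not tested.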
